A study of Homo sapiens with 9 samples.

Results

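Of the 9588 genes in the deposited gene list of this study of transcription recovery after UV damage, 396 were at least 100 kb long and listed with a nascent RNA density of 0 at their start. These silent long genes were selected on length and on that measured density, a BrU-seq value that covers the opening 3 kb of each gene in cells without irradiation. Values closer to 0 than 1e-06 were counted as 0, and genes without a value were left out. Of the 1098 listed genes of at least 100 kb, 390 had a density of at least 15 and are called transcribed here, 308 lay between 0 and 15, and 4 had no value. The list held 1094 long genes with a value, so that 36.2% were silent and 35.6% were transcribed. Over all lengths, 41.3% of the listed genes stood at 0.

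The study profiled ubiquitylated histone H2B by ChIP-seq in RPE1-hTERT cells, an immortalized human line derived from retinal pigment epithelium, of the genotype iCas9 p53/puro-dKO. The 9 libraries were 2 mock-treated, 2 taken 3 h and 4 taken 24 h after 9 J/m2 of UV-C, and 1 input of mock-treated cells. All libraries carried the same genotype, and the nascent RNA densities came from WT cells of an earlier experiment by the same group. The list gives 1 value per gene without a replicate, so each density stands without an error. No test between conditions was run, since ChIP-seq values by library were not analysed here. Its scale is not stated in the sources used here, and the values below are in the authors' unit.

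BrU-seq captures RNA into which cells built bromouridine during a brief labelling, so that the signal near a gene's start follows how often RNA polymerase II sets off from it. Each cell type transcribes only part of its genes, and long genes are known for their place in neurons, muscle and development, where adhesion molecules, receptors and channels are spread over large introns. Broadly used genes mostly start in CpG islands, short stretches in which the dinucleotide CG has been kept, whereas many long noncoding RNA (lncRNA) genes and strictly tissue-specific genes start outside them. In UV experiments a long gene shows how far polymerase travels through damaged DNA, and a silent one carries no such signal.

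The starts of silent long genes ranged from stretches rich in CpG to stretches without any, which is visible in the bases themselves. The 250 bases upstream of the RefSeq start (GRCh38.p14) are given for the 3 silent genes with the highest and 3 with the lowest ratio of observed to expected CpG in the 300-base RefSeq promoter among the listed families, and for 2 strongly transcribed long genes beside them. Every CG is in capitals, each sequence runs 5′ to 3′ toward the gene, and the RefSeq start lay within 6 bp of the listed one in all 8 genes. The first 3 are CFAP221 (cilia and flagella associated protein; chr2:119544199-119544448, + strand), PAX7 (a transcription factor of muscle stem cells; chr1:18630596-18630845, + strand) and ADAMTS2 (a procollagen protease; chr5:179345462-179345711, - strand), all with a density of 0.
CFAP221: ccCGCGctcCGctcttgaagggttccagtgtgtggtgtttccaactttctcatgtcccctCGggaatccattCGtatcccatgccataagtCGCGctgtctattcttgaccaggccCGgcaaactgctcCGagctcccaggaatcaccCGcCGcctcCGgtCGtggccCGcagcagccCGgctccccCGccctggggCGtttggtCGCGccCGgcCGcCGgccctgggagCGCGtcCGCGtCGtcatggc
PAX7: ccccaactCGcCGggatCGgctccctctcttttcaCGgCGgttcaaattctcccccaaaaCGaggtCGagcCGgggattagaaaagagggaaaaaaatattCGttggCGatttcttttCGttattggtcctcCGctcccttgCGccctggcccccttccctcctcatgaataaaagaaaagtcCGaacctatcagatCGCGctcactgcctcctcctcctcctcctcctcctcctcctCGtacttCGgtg
ADAMTS2: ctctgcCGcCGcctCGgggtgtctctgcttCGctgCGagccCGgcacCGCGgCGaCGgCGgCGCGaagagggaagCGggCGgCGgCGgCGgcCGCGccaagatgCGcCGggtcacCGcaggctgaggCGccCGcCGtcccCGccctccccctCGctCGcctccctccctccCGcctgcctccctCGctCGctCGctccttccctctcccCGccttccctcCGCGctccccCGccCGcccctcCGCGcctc
These stretches held 27, 18 and 40 CG dinucleotides, respectively. The next 3 belong to lncRNA genes of unknown function that were also listed at 0, LINC01476 (chr17:59526858-59527107, - strand), LINC02201 (chr5:122730561-122730810, - strand) and LINC02552 (chr11:104609303-104609552, - strand).
LINC01476: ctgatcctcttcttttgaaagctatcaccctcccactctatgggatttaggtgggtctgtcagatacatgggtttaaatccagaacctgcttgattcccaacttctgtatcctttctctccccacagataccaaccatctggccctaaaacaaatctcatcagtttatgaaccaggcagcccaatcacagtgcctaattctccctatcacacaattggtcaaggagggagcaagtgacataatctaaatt
LINC02201: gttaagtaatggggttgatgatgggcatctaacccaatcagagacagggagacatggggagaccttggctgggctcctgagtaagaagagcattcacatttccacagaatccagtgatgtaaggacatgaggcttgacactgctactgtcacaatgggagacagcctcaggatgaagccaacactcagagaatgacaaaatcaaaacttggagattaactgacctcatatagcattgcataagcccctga
LINC02552: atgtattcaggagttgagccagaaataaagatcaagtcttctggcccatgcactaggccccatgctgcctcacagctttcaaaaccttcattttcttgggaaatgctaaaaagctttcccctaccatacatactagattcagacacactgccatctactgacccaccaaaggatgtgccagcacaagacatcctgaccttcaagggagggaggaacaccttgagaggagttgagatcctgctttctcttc
None of the 3 held a single CG. The last 2 are from transcribed genes, ARHGAP18 (a GTPase-activating protein; chr6:129710178-129710427, - strand), with a density of 357.0, and SEMA3C (a secreted guidance cue; chr7:80919052-80919301, - strand), with 346.7.
ARHGAP18: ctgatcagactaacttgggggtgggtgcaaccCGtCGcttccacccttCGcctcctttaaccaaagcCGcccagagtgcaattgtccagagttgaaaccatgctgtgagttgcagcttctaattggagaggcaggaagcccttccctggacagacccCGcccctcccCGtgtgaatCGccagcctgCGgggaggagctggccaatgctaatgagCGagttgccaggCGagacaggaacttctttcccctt
SEMA3C: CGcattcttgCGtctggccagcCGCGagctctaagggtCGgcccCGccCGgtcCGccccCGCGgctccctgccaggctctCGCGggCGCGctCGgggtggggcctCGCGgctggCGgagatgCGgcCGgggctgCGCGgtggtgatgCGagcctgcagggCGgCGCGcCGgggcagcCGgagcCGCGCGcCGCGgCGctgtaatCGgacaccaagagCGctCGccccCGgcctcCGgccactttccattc
SEMA3C held 39 CG dinucleotides, about as many as silent ADAMTS2, while ARHGAP18, with a density among the 3 highest of all long genes, held only 10. The silent examples were picked as extremes and the transcribed ones for their density, so they illustrate the range and do not compare the sets.

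The densities were listed in whole steps. All 5579 listed densities above 0, 698 of them in long genes, were whole multiples of 0.0433 to within 0.01 of that step, as whole reads counted over 3 kb and scaled by 1 factor would be. The longest silent gene was LINGO2 at 1275985 bp and the shortest was 100044 bp long. The longest gene at 0 below the length limit measured 99867 bp. The lowest density above 0 was 1 step, 0.0433, in 8 long genes, among them DCLK1, a microtubule-associated kinase of neurons, and MEGF10, a receptor for engulfment. If 1 step is 1 read, a listed 0 allows a density of up to 0.13, the value of 3 reads, counting error only. At or under that value stood 40 more long genes. The transcribed genes began at 15.04, which is 347 steps, with a median of 53.8 and quartiles of 33.2 and 94.0. The median of the 308 genes in between was 0.932. EXT1, MYOF and ARHGAP18 were the most transcribed long genes, with densities of 699.9, 565.9 and 357.0.

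**Figure D1:**
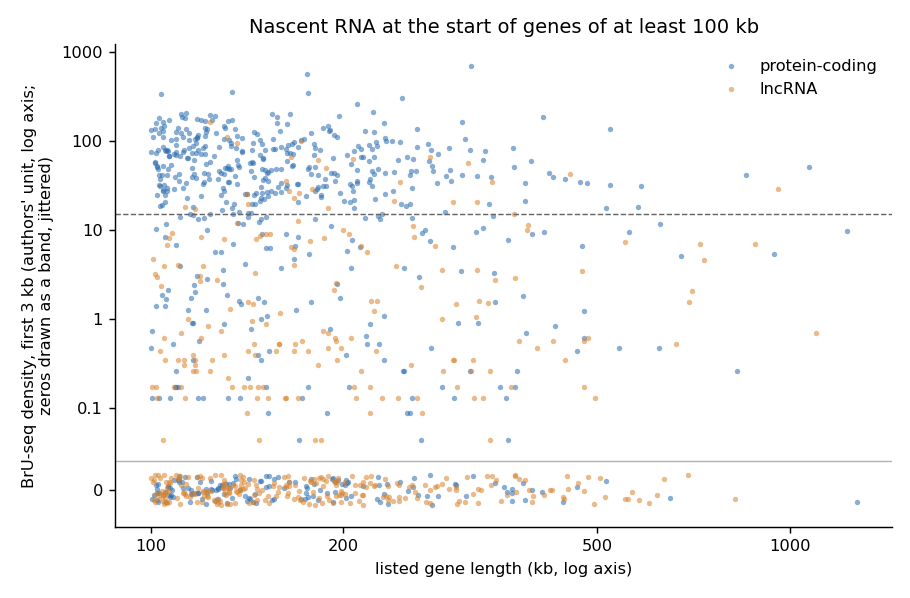
Density of nascent RNA in the first 3 kb (log axis, authors' unit) against listed gene length (log axis) for protein-coding (blue) and lncRNA (orange) genes of at least 100 kb; each point is a gene, the dashed line marks 15, and zeros form the jittered band at the bottom. The 396 silent genes span the whole length range up to LINGO2 at 1275985 bp, and lncRNA genes make up most of the band and few of the points above the dashed line.

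The label of the cells was checked against marker genes. The list leaves out most overlapping and closely spaced genes, and held 7 of 20 markers of retinal pigment epithelium. OTX2, a transcription factor of this tissue, had a density of 217.1 and MITF, a pigment cell regulator of 228869 bp, had 13.3. The visual cycle genes RPE65, RLBP1 and LRAT had 0.26, 1.26 and 0.997, and CRX and TTR stood at 0. Of 5 listed fibroblast markers, PDGFRB had 136.1, COL1A1 had 25.8 and DCN had 0.477, while COL1A2 and LUM stood at 0. Of 3 blood markers only IKZF1 was listed, and it was at 0. The list held 2 of 5 endothelial markers, CDH5 at 0 and KDR at 1.69. Of 4 neuronal markers only SNAP25 was listed, with 18.4.

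Silent long genes were mostly noncoding. By GENCODE, 250 of the 396 (63.1%) were lncRNA genes, 144 (36.4%) were protein-coding and 2 were unitary pseudogenes. Among the 390 transcribed long genes 27 (6.92%) were lncRNA genes and 363 (93.1%) were protein-coding. The 250 noncoding genes were largely uncharacterized, and 130 of the silent genes bore a LINC symbol and 99 had no symbol beyond the Ensembl identifier. In each of the 18 chromosomes with at least 5 genes in both sets, the lncRNA share was higher in the silent set. Of the 10 longest silent genes, 8 were lncRNA genes, between LINC00378 at 557734 bp and ENSG00000228566 at 820388 bp. The other two were LINGO2, which encodes a membrane protein of neurons with leucine-rich repeats, and UNC13C, a priming factor for synaptic vesicles, at 650165 bp.

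The share of silent genes was level above 50 kb. It was 35.9% at 50 to 100 kb, 36.2% at 100 to 200 kb, 36.1% at 200 to 500 kb and 36.8% above 500 kb, where 38 genes had a value. Within protein-coding genes the share was lower in each longer class, from 44.5% under 10 kb through 26.7% at 10 to 50 kb and 23.2% at 50 to 100 kb to 22.4%, 21.2% and 16.7% in the 3 longest classes. The last of these rests on 3 of 18 genes. Among lncRNA genes it was 62.4% under 10 kb, 60.9% at 10 to 50 kb and 63.9% at 50 to 100 kb, and 59.0%, 54.9% and 55% in the 3 longest classes. From 50 kb upward lncRNA genes made up more of each longer class, with 421 of 1345 genes, 273 of 729, 142 of 327 and 20 of 38.

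**Figure D2:**
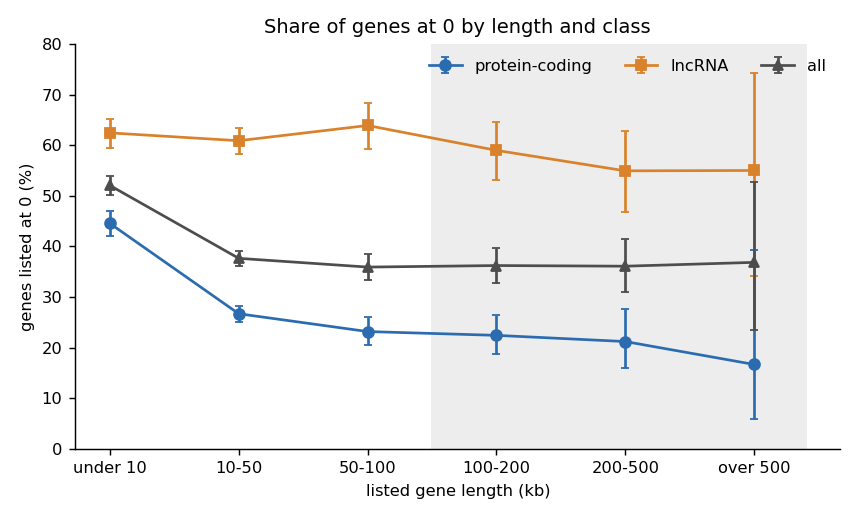
Share of listed genes with a density of 0 (percent) in 6 length classes (kb) for protein-coding genes, lncRNA genes and all genes; bars are Wilson 95% intervals, which cover counting error only, and the shaded classes are those of at least 100 kb. The share over all genes stays near 36% from 50 kb upward, with lncRNA genes above and protein-coding genes below it at every length.

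The protein-coding silent genes were described by the tissue in which each is best known. Grouped by hand after their values had been seen, 39 of the 144 were genes of the nervous system, 15 of the germline and sperm, 13 of development and growth factor signalling, 11 of liver, kidney, gut and glands, 7 of blood and endothelium and 5 of retina and inner ear. The remaining 54 were not assigned. Long coding genes above 0 were not sorted in this way, so these counts have no share to compare with and show no enrichment. As a second description, the share at 0 was counted in families of long genes taken by symbol, against 36.2% of all long genes and 21.9% of the 657 protein-coding ones. The families were likewise listed with earlier results of these data known, so they are not independent of the values. Only 43 of the 144 silent coding genes belonged to such a family, and each family is small. The shares of ion channels (27.8%), adhesion molecules of synapses and axons (25%) and developmental transcription factors (26.7%) lay near that of all long coding genes. Their counts below therefore do not set these families apart.

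Receptors for neurotransmitters were silent in 6 of 8 long members. The 6 were GABRB2, a subunit of the GABA-A receptor (258290 bp), GLRA2 and GLRA3, subunits of the glycine receptor (202277 and 192328 bp), CHRNA7, a nicotinic acetylcholine receptor (142504 bp), TACR3, the neurokinin B receptor, and GRM4, a glutamate receptor coupled to G proteins. The other two had low values, 5.11 for the kainate receptor GRIK2 and 9.10 for GABRB1, so that no long receptor gene reached 15.

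Ion channels were silent in 5 of 18 long members. Among these were ANO2, a calcium-activated chloride channel (382605 bp), UNC80, a partner of the sodium leak channel, KCNK10, a background potassium channel, and SCN10A, a sodium channel of sensory neurons. A further 10 lay between 0 and 15, among them SCN2A, a sodium channel of central neurons, at 0.0867. Of the 3 transcribed members, SCN9A, another sodium channel of sensory neurons, had 51.4 and KCNK2, a background potassium channel, had 27.7.

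Adhesion molecules of synapses and axons were silent in 3 of 12, LINGO2, CNTN6 (a contactin, 311194 bp) and EPHA7 (an ephrin receptor, 179540 bp). Of the other members 7 lay between 0 and 15 and 2 were transcribed, the guidance cues SEMA3C at 346.7 and SEMA3A at 101.4. Cadherins and protocadherins were silent in 3 of 6, namely CDH9, CDH22 and CDH19, which are adhesion proteins of neural and glial cells. PCDH7 and FAT1 were transcribed at 39.95 and 83.1.

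All 4 long genes of the blood and immune list were silent. THEMIS, a signalling protein of thymocytes (192859 bp), and PRKCQ, a kinase of T cell activation (153129 bp), stood beside the lymphoid transcription factors IKZF3 (106595 bp) and IKZF1 (100386 bp). Genes of liver, kidney and gut were silent in 5 of 9, AGMO, an ether lipid oxygenase, LRP2, the endocytic receptor megalin, LPA, apolipoprotein(a), MGAM, an intestinal glucosidase, and ITIH5, a hyaluronan-binding protein. The bicarbonate transporter SLC4A4 was the transcribed one, at 33.9. LPA and MGAM have closely related neighbouring genes, which makes their counts less certain. In the list of photoreceptor and inner ear genes 2 of 5 were silent, the hair cell gene LOXHD1 and the retinal transporter ABCA4, and RIMS1, an active zone protein, was transcribed at 17.9.

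Genes of motile cilia and sperm were silent in 7 of 18, led by CFAP47 (465584 bp), VWA3B (226133 bp), ZPBP, a protein that binds the zona pellucida, and ADAM18, a sperm membrane protein. SYCP1 of the meiotic synaptonemal complex was another. DNAH14, an axonemal dynein, had a density of 34.4, and ADAM32 had 50.9. Transcription factors of development were silent in 4 of 15, namely EYA1 (164637 bp), ERG, PAX7 and the RNA-binding protein ELAVL2, which the list also holds. Transcribed in the same list were MECOM at 18.3, RUNX1 at 137.6, ETV6 at 97.2 and NFIB at 109.5. Matrix and integrin genes were silent in 3 of 18, COL19A1 (345913 bp), ADAMTS2 and the integrin ITGA8, while SPOCK1, a proteoglycan, had 137.6. Of the muscle and heart list none of 4 was silent.

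Families of general cell function showed few silent members. None of 18 long ubiquitin and chromatin genes stood at 0 and 17 were transcribed, the longest of them FBXL17 at 31.8. Among regulators of small GTPases 1 of 18 was silent, ARHGAP20 (135395 bp), and 14 were transcribed, the longest being SIPA1L1 at 44.3. LINC genes were at the other end, with 130 of 204 silent and 9 transcribed.

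CpG content at the start differed between silent and transcribed genes within each gene class. In the 1 kb around the listed start, the ratio of observed to expected CpG had a median of 0.395 in silent and 0.817 in transcribed genes. For protein-coding genes the medians were 0.702 and 0.820, and for lncRNA genes 0.276 and 0.668. A start with a ratio of at least 0.6 and a GC content of at least 50% was called CpG-island-like. This held for 108 silent genes (27.3%) and 344 transcribed genes (88.2%). It held for 88 of 144 silent and 328 of 363 transcribed protein-coding genes (61.1% and 90.4%), and for 20 of 250 and 16 of 27 lncRNA genes (8.00% and 59.3%). The median ratio was lower in the silent set in 18 of 18 chromosomes.

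Most silent protein-coding genes therefore had a CpG-rich start. Among all long protein-coding genes with a CpG-island-like start 17.3% were silent and 64.6% transcribed, and among those without one 37.6% were silent and 23.5% transcribed. IKZF1 and KCNK10 were among the 3 silent genes of the listed families with the highest ratios, at 0.950 and 0.911. LINC02250, LINC03077 and LINC01911 had the lowest, at 0, 0.0308 and 0.0349. In the hand-made groups a CpG-island-like start was found in 27 of 39 silent nervous system genes and 9 of 13 developmental ones. It was found in 3 of 11 genes of liver, kidney, gut and glands and 2 of 7 of blood and endothelium. For germline and sperm it was 7 of 15, and for retina and inner ear 2 of 5. The unassigned genes had one in 38 of 54, so a high share was not particular to nervous system and developmental genes.

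RefSeq gave a promoter of 300 bases for 201 silent and 318 transcribed long genes, and for 129 and 295 of them the RefSeq start lay within 50 bp of the listed one. In these, the GC box letters GGGCGG were found on either strand in 63 of 106 silent coding genes (59.4%) and 228 of 289 transcribed ones (78.9%), and in 45.0% of all RefSeq promoters. For coding genes between 0 and 15 with starts as close, the letters were found in 66 of 122 (54.1%). They were found in 1 of 23 silent lncRNA genes. The letters CCAAT, on either strand, were found in 27 of the silent coding genes (25.5%), 77 of the transcribed ones (26.6%), 15 of the 23 silent lncRNA genes (65.2%) and 34.6% of all promoters. TATAAA on the gene's strand 40 to 20 bases before the listed start was found in 8 silent (2.02%) and 1 transcribed gene (0.256%). These are matches of letters and not mapped binding sites.

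The nearest listed gene of a silent long gene was often silent as well. It stood at 0 for 251 of 396 silent genes (63.4%) and for 118 of 390 transcribed genes (30.3%), against 40.8% over all listed genes. Its density was at least 15 for 67 silent (16.9%) and 161 transcribed genes (41.3%). Within protein-coding genes the nearest gene was at 0 for 81 of 144 silent genes (56.3%) and 111 of 363 transcribed genes (30.6%), and within lncRNA genes for 168 of 250 (67.2%) and 7 of 27 (25.9%). Both flanking genes were at 0 for 137 silent (34.6%) and 45 transcribed genes (11.5%). The share was higher in the silent set in 17 of 18 chromosomes, with chromosome 21 as the exception. Neighbours can be shared between genes, and the same reads may lie in overlapping genes, so these shares are descriptions.

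Silent long genes lay in runs of successive listed genes at 0. In all, 136 of the 396 (34.3%) belonged to 85 runs of at least 5 genes, 26 to 15 runs of at least 10, and 76 had no silent listed gene on either side. Of the silent genes under 100 kb, 31.8% had both flanking genes at 0, against 34.6% of the long ones, and 56.0% had a nearest listed gene at 0. By number of genes, the longest run was on chromosome Y, with 23 genes at 0 and UTY and TTTY10 as its long members. Whether the cells carry this chromosome was not tested, so a 0 there need not mean a gene that is present and silent. The longest run outside the sex chromosomes was that of chr13:52703264-62249947, with 19 genes in succession at 0 over 9.55 Mb, 13 lncRNA and 5 protein-coding among them. Its long members were LINC00558, LINC00458 and LINC00378. A run on chr9:42183659-61627683 spanned more, 19.4 Mb, with only 8 genes. Such spans include the stretches between listed genes, where no density was listed, so their size does not measure silent sequence. A run of 12 genes on chr5:23507609-29983114 held 4 long silent genes, CDH9, PURPL, LINC02109 and ENSG00000250453. On chr14:81605347-88323269 LINC02301 and KCNK10 shared a run of 14 genes, 12 of them lncRNA. A run of 16 genes on chr1:12773738-14419973 was of another kind, with 15 protein-coding genes and PRDM2, a histone methyltransferase, as its long member. Silent genes also lay beside active ones. The 602651 bp lncRNA gene ENSG00000237844 stood next to FIGN at 96.3, IKZF1 next to GRB10 at 63.9, and ABCA4 next to ARHGAP29 at 258.8.

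Isolation depended on which neighbours were counted. The median gap to the nearest listed gene was 74.1 kb for silent and 63.9 kb for transcribed genes, with quartiles of 18.3 and 203.5 kb against 15.8 and 172.8 kb, so that the distributions largely overlapped. By chromosome this median was larger in the silent set in 10 of 18 and smaller in 8. The gap to the nearest annotated protein-coding gene was longer in the silent set, at 106.8 kb against 26.3 kb, and was so in 18 of 18 chromosomes. Here coding genes that overlap the gene were passed over, while an overlap with a listed gene counted as a gap of 0. A gene that overlaps a coding gene can thus show a long gap to the next one, and these gaps are not alike. The gap to a coding gene was 40.3 kb for silent and 24.7 kb for transcribed protein-coding genes, and 160.7 and 44.1 kb for lncRNA genes. It passed 500 kb for 52 silent (13.1%) and 12 transcribed genes (3.08%). Within 1 Mb of the start lay a median of 6 coding starts for silent and 10 for transcribed genes, a difference that was small among protein-coding genes (10 and 11) and larger among lncRNA genes (4 and 7). At the far end, LINC00879 on chromosome 3 was 1661653 bp from the next listed gene, followed by KC6 (1111098 bp), CASC6 (970219 bp), ENSG00000250149 (964088 bp) and XACT (944860 bp). Conversely, 46 silent and 14 transcribed genes overlapped another listed gene by the listed coordinates, although the list was made of genes set at least 2 kb apart.

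The annotated structure of the silent genes was simpler. Their canonical transcripts had a median of 5 exons against 16 in transcribed genes, which within classes was 13 against 17 for protein-coding genes and 4 against 5 for lncRNA genes. The median number of annotated transcripts was 5 and 10. Median lengths were 160.1 kb and 150.8 kb, with 150.2 and 149.2 kb for protein-coding genes and 166.2 and 178.9 kb for lncRNA genes. The longest intron measured 74.0 kb and 53.9 kb in the median, but 57.4 and 52.7 kb among protein-coding genes and, in the other direction, 91.8 and 111.3 kb among lncRNA genes. Over the gene body, GC content had a median of 37.8% and 39.2%, and of 40.1% and 39.1% among protein-coding genes. TT dinucleotides, the sites at which UV most often joins bases, numbered 101.3 and 90.8 per kb of the transcribed strand in the median, and 90.0 and 90.5 per kb among protein-coding genes. The difference in this number of potential UV target sites was thus seen over both classes together and hardly within coding genes, while for lncRNA genes the medians were 104.7 and 98.9 per kb.

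The density covers only the first 3 kb after 1 listed start. That start was the canonical one of GENCODE for 143 of 144 silent coding genes, MUC16 being the exception by 29048 bp, and for 361 of 363 transcribed ones. For silent lncRNA genes it was so in 119 of 250 (47.6%), and for transcribed ones in 14 of 27 (51.9%). The listed start was any annotated GENCODE start, to the base, in 151 of 250 silent (60.4%) and 19 of 27 transcribed lncRNA genes (70.4%). The densities and CpG ratios of the other lncRNA genes were thus taken at starts that match no annotated one exactly. Another annotated start lay more than 3 kb away in 120 of 144 silent (83.3%) and 335 of 363 transcribed coding genes (92.3%), so that a gene listed at 0 may be transcribed from a start that was not counted. This was not tested, since no density at other starts was used here.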

How the data were processed

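Per the study's methods and the submitters' processing notes, reads were trimmed with Trim Galore 0.6.5 and BrU-seq reads were aligned with STAR, keeping 1 alignment of each multiply mapped read. HOMER 4.8.2 counted them over the first 3 kb of UCSC canonical genes that did not overlap and lay at least 2 kb apart. The authors gave this density as a score, 1 deposited value per gene with no depth given. ChIP-seq values of single libraries were not analysed here, and 0 columns of single samples were left aside.

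Genes were matched by Ensembl identifier to GENCODE 44 on hg38, which is the build of the listed coordinates (1096 of 1098 long genes, all on the same chromosome and strand). Gaps, runs, exons, CpG and TT counts were computed in Python 3.11.15 with pandas 2.3.3 and numpy 2.4.6, after checking on simulated data. Promoters came from RefSeq. The genes named were the 10 longest, the 4 longest silent and the longest transcribed of each list, and the extremes of isolation, CpG ratio, density and run length. Some genes under this rule are not reported here. Other genes were named after their values had been seen. The members and lists were chosen with earlier results of these data known. With 1 value per gene, no test was run and all comparisons are descriptions over genes, which are not replicates. Alternatives to length, silence, class, start, window and neighbour choices were computed.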

Additional observations from a re-analysis of the deposited data

How the results depend on the processing

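The lncRNA share, gap to the nearest listed gene, share with a silent nearest gene, exon number and share of CpG-island-like starts were recomputed as the value in silent minus that in transcribed genes, and none of these 5 turned direction under the alternatives run. Within classes the direction did turn for GC content and TT number in coding genes and for length and longest intron in lncRNA genes. The count of 396 members moved to 879 at a length of at least 50 kb, 214 at 150 kb and 132 at 200 kb. The difference in the share with the nearest listed gene at 0, 33.1 percentage points, was 41.8 for genes of at least 200 kb, 25.7 for protein-coding genes, 41.3 for lncRNA genes and 23.1 when both flanking genes had to be at 0. The lower share of CpG-island-like starts, -60.9 points, was -29.2 for protein-coding and -51.3 for lncRNA genes, -53.8 with canonical starts only, -52.6 in a 2 kb window and -49.5 at the stricter threshold of 0.75 and 55%. The median difference of -11 exons became -4, -1 and -9 for protein-coding genes, lncRNA genes and canonical starts. The median gap difference of 10.3 kb to listed genes became 80.5 kb to protein-coding genes that do not overlap. It was 24.6 kb without genes overlapping a listed gene, 2.76 kb for genes of at least 200 kb, 3.07 kb for protein-coding genes and 2.62 kb between starts, and ranged from 3.62 to 14.8 kb when single chromosomes were left out. Counting densities under 1 as silent raised the share at 0 from 27.8% to 55.6% in ion channels and from 63.7% to 84.8% in LINC genes, while over all long genes it raised the count from 396 to 554 of 1094. The lncRNA-only, exact-zero and overlap alternatives were added after the data were seen. The unknown read depth and single density per gene limit every statement, and 40 further long genes lay within 3 steps of 0. No paired analysis was possible because the values come from no test and carry no replicate number.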

Other observations

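The zeros were of 2 kinds. Of the 396 silent long genes, 342 were listed at exactly 0 and 54 at values within 7.13e-12 of 0, 21 slightly above and 33 slightly below it, such as remain after a calculation with decimal numbers. The nearest listed gene was at 0 for 230 of the 342 exact zeros (67.3%) and for 21 of the 54 others (38.9%), and had a density of at least 15 for 46 (13.5%) and 21 (38.9%). The same was seen within protein-coding genes (59.5% and 42.9% with the nearest gene at 0) and within lncRNA genes (71.0% and 34.6%). It was also seen in the silent genes under 100 kb, which the choice by length left out, with 1669 of 2710 (61.6%) and 306 of 816 (37.5%). How the 2 kinds of 0 arose was not tested.

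PRDM2, FGFR2 and LRP2 were singled out after their values were seen, as silent coding genes with CpG-rich starts. Their observed over expected CpG ratios were 0.979, 1.05 and 0.875, and their nearest listed genes had densities of 0, 0 and 4.25. All 3 starts were the canonical ones, and each gene has another annotated start more than 3 kb away.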
